A study of Mus musculus with 46 samples.

Results

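Chemokine ligands are small secreted proteins that draw leukocytes along a concentration gradient, and 10 of their genes were followed here among the 46264 gene symbols measured in 46 mouse libraries. The 10 were taken by name and not by their values: Ccl2, Ccl3, Ccl4, Ccl5, Ccl6, Cxcl1, Cxcl2, Cxcl3, Cxcl10 and Cxcl16. The study used a mouse model of mucous membrane pemphigoid, in which antibodies to laminin 332 attack the epithelial basement membrane, and compared intravenous immunoglobulin (IVIG, pooled immunoglobulin) with phosphate-buffered saline (PBS). Bulk RNA came from skin (3 IVIG and 3 PBS libraries), monocytes (3 IVIG and 5 PBS), neutrophils (5 IVIG and 5 PBS) and blood (5 IVIG and 5 PBS). A separate experiment, labelled Ics, had 4 libraries each at 0 h (titled unstimulated), 3 h and 6 h (both titled stimulated). The extraction protocol speaks of neutrophils and monocytes derived from bone marrow and of whole blood, but the labels neither expand Ics nor name its cells. The labels used here give no strain, age, dose or time of treatment. Nor do they tie a library to an animal or culture of its own, and the p-values therefore speak of variation among the libraries, part of which may be technical.

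Chemokines act through G protein-coupled receptors, and the receptor decides which leukocyte answers. Cxcl1, Cxcl2 and Cxcl3 bind Cxcr2 and draw neutrophils. Ccl2 binds Ccr2 and draws inflammatory monocytes. Ccl3, Ccl4 and Ccl5 bring in monocytes, macrophages and activated T cells, with Ccr1 among the receptors of Ccl3 and Ccl5, and the rodent chemokine Ccl6 acts through Ccr1. Cxcl10 binds Cxcr3 on activated T cells and natural killer (NK) cells, and Cxcl16, made as a membrane-anchored protein that the proteases Adam10 and Adam17 release, binds Cxcr6 on T-cell subsets. In antibody-driven blistering, immune complexes engage Fc receptors of neutrophils and macrophages, and chemokines from these cells and from keratinocytes bring further leukocytes to the basement membrane.

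The genes lie on 2 chromosomes, by the GENCODE vM21 annotation of GRCm38. The 4 genes on chromosome 5 are Cxcl3 (90786103 to 90789600, plus strand), Cxcl1 (90891241 to 90893115, plus strand), Cxcl2 (90903871 to 90905938, plus strand) and Cxcl10 (92346638 to 92348889, minus strand). On chromosome 11 lie Cxcl16 (70453983 to 70459984, minus strand), Ccl2 (82035571 to 82037453, plus strand), Ccl5 (83525778 to 83530518, minus strand), Ccl6 (83587882 to 83593087, minus strand), Ccl3 (83647844 to 83649355, minus strand) and Ccl4 (83662584 to 83664683, plus strand). Ccl2, Ccl6, Cxcl10 and Cxcl16 overlap the genes Gm17268, E230016K23Rik, Art3 and Zmynd15 on the other strand, and whether the counting used strand is not given in the sources used here. In the annotated transcripts, 7.59% of the 31-base words of Cxcl2 also occur in Cxcl3, so reads of that stretch could be split between both genes.

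Promoter sequences of 6 of the 10 genes were in the RefSeq table of 300-base windows (assembly GRCm38.p6, 250 bases before to 50 after the start of the gene). All 6 are shown, for 5 genes that rose in the Ics experiment and for Ccl6, which fell. Capitals mark matches to the kappa B consensus, the binding motif of NF-kB, and to a pair of GAAA separated by 2 bases of any kind, a motif of interferon-regulatory factors, both searched on either strand with overlapping matches counted singly.
Cxcl1: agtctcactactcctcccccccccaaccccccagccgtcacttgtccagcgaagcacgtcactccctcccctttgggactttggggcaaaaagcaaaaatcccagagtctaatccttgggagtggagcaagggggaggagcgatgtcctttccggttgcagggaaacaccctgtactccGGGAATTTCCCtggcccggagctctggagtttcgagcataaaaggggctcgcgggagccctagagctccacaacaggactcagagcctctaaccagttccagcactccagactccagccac
Cxcl2: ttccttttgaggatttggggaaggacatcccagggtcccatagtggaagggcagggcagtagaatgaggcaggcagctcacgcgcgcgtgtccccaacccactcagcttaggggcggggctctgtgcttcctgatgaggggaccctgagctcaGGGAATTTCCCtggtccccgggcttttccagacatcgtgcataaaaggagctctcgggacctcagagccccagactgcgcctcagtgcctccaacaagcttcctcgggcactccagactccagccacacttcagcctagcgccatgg
Cxcl3: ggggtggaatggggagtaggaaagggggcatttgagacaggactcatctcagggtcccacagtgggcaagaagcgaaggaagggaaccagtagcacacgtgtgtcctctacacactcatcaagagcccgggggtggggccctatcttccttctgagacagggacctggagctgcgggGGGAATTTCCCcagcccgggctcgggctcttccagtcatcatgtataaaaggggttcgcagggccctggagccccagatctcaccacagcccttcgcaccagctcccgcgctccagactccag
Cxcl10: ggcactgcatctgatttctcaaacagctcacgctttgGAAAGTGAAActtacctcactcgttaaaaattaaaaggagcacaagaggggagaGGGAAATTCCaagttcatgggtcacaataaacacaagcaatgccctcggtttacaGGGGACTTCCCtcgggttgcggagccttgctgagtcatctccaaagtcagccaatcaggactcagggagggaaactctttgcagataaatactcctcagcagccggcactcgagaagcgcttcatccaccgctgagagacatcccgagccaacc
Ccl3: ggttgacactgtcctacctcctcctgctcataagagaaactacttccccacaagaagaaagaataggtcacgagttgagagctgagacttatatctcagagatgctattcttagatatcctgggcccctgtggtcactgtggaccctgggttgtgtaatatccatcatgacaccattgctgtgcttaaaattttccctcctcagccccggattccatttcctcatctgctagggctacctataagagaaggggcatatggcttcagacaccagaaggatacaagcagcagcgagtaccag
Ccl6: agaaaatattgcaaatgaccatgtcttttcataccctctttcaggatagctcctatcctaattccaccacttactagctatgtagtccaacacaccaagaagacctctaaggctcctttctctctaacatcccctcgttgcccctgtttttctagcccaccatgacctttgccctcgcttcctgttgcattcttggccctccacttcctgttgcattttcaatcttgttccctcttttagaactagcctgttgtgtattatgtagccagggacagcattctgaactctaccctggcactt

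The windows are chr5:90890995-90891294 for Cxcl1, chr5:90903649-90903948 for Cxcl2 and chr5:90785851-90786150 for Cxcl3, all on the plus strand. Those of Ccl3 (chr11:83649329-83649628), Cxcl10 (chr5:92348840-92349139) and Ccl6 (chr11:83593038-83593337) are on the minus strand and are printed in the direction of the gene. The kappa B consensus was found in 4 of the 6 windows (Cxcl1, Cxcl2, Cxcl3 and Cxcl10) and in 8.46% of all 32851 windows of the same length. Cxcl1, Cxcl2 and Cxcl3 held the same letters, GGGAATTTCC, starting 71, 97 and 73 bases before the start of the gene, and these exact letters occurred in 29 windows, 0.0883% of all. The overlapping letters GGAATTTCCC, which these 3 windows hold and Cxcl10 holds on the other strand, occurred in 36 windows, 0.11% of all. Both strings were picked for counting because these 3 windows share them, and both counts include the windows named. Cxcl10 had its first kappa B match, GGGAAATTCC, 159 bases before the start, and also held GGGGACTTCC and, overlapping it, GGGACTTCCC. Its GAAA pair started at -213, and 3.44% of all windows hold such a pair. The letters TATAAA stood in the Cxcl3 window alone among the 6, at -30, and in 13.6% of all windows. The windows of Ccl3, which rose, and Ccl6, which fell, held no match to either marked motif. A match is a string of letters and not a measured site.

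Tissue labels were checked against marker genes before any comparison. Libraries were classed as blood above 10% haemoglobin counts, else skin above 100 CPM (estimated counts scaled to a common library total) of the keratins Krt5 and Krt14 together, else neutrophil above 10000 CPM of S100a8 and S100a9 together, else monocyte. In 25 of the 34 skin, monocyte, neutrophil and blood libraries the class matched the label, and in 9 it went against it. Those were Skin_IVIG replicate 3, Skin_PBS replicate 1, Neutrophil_IVIG replicate 5 and Neutrophil_PBS replicate 1 (blood markers), Monocyte_PBS replicate 1 and Blood_PBS replicate 1 (neutrophil markers), Blood_IVIG replicate 3 and Blood_PBS replicate 2 (skin markers) and Blood_IVIG replicate 2 (monocyte markers). Results across tissues are therefore given with and without these 9 libraries, and every IVIG direction holds only for the names as deposited. Titles of the 34 libraries also carry a series and a number that recur across tissues, and what they mark is not said. Some carry both conditions under the same number. Series 3 number 1 is on Neutrophil_IVIG replicate 2, but also on Monocyte_PBS replicate 5 and Blood_PBS replicate 2. Libraries of the monocyte class had 1092 to 8548 CPM of 7 neutrophil markers in all and those of the neutrophil class 1767 to 3178 CPM of 11 monocyte and macrophage markers, so neither was free of the other. The monocyte class is what the other limits leave over, and no monocyte marker was required for it. Its own sum of the 11 markers was 667 to 7664 CPM, so its lowest library, Monocyte_PBS replicate 3 with 25.5 CPM of Csf1r, lay below the neutrophil class. In bulk RNA, fewer cells of a type and less RNA per cell cannot be told apart.

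The 12 Ics libraries carried neutrophil markers throughout and no keratin Krt5 or Krt14. The summed level of the 7 neutrophil markers was 61390 to 69110 CPM at 0 h, 45580 to 53540 CPM at 3 h and 44050 to 49650 CPM at 6 h. That of 11 monocyte and macrophage markers was 810 to 910 CPM, 961 to 1001 CPM and 979 to 1061 CPM at the same times, with C1qa and C1qb at 0 at 6 h. Every one of the 12 libraries lay closest to a library of its own time, and totals ran from 24827887 to 29502869 estimated counts.

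Between 0 h and 3 h in the Ics experiment, 8 of the 9 ligand genes tested rose and Ccl6 fell, and the same holds at 6 h. Cxcl16 (22.2-fold), Cxcl10 (17.5-fold) and Cxcl1 (12.9-fold) had the largest folds at 3 h, and Ccl3 (11.0-fold) had the largest at 6 h. Between 3 h and 6 h, Ccl4, Cxcl1, Cxcl10, Cxcl16 and Ccl6 fell and none passed as higher, although Ccl3 did under some alternatives given below. Of all 14996 genes tested with edgeR's quasi-likelihood F test (adjusted p under 0.05), 54.4% passed at 3 h against 0 h, 26.9% higher and 27.5% lower. At 6 h against 0 h 60% passed (29.6% higher, 30.4% lower), and at 6 h against 3 h 40.8% (20.5% higher, 20.3% lower), so a called change was common among all genes. The median log2 change of the 9 ligands was 2.97, 2.11 and -0.47 in the 3 comparisons, beside -0.06, -0.06 and -0.03 over all genes tested. TMM scaling (edgeR's trimmed mean of M-values) shifted the libraries against one another, with a mean log2 factor difference of -0.25 at 3 h against 0 h and -0.16 at 6 h against 0 h. By library totals alone the median of all genes was therefore -0.30 at 3 h and -0.22 at 6 h, and 29.8% and 37.4% of called genes were higher, against 49.4% and 49.3% with TMM, and at 6 h against 3 h 61.7% against 50.1%. All 9 ligands kept their direction and call against 0 h either way. By levels alone, libraries did not overlap for 10 of 10 ligands at 3 h and 9 at 6 h, each against 0 h. At 6 h against 3 h they did not overlap for 5, all lower. Ccl2, which did not pass the filter, is in the 10 and the 9, and there only Ccl2 and Ccl6 were lower. Of all genes tested, 54.3% did not overlap at 3 h against 0 h (16.3% higher, 38.1% lower). The share was 56.6% at 6 h against 0 h (21.5% higher, 35% lower). At 6 h against 3 h it was 38.3% (23.9% higher, 14.4% lower).

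**Figure D1:**
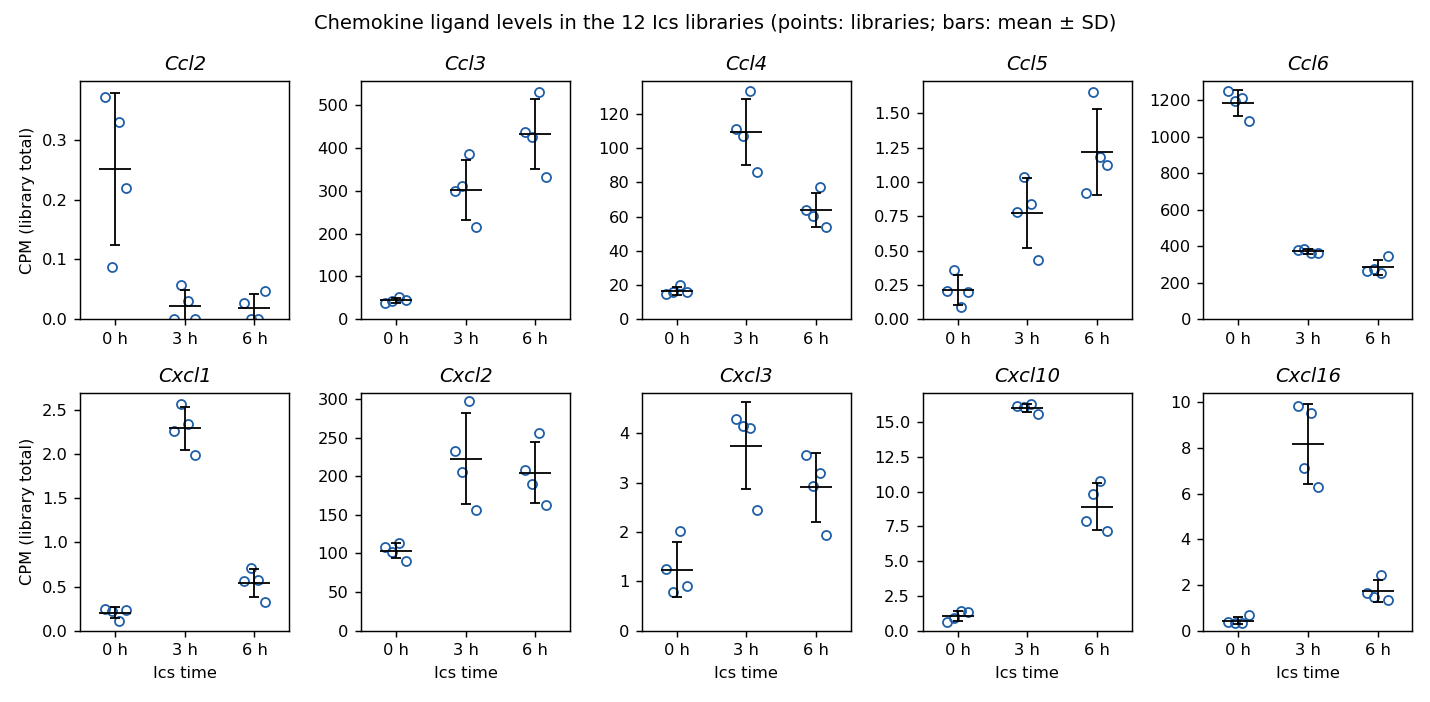
Level of each of the 10 ligand genes (CPM of the library total, linear axis starting at 0) in the 4 libraries at 0 h, 3 h and 6 h of the Ics experiment, with circles for libraries and bars for mean ± SD. Ccl6 is highest at 0 h, Ccl3 is highest at 6 h, and Cxcl1, Cxcl10 and Cxcl16 are highest at 3 h.

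Among the neutrophil-attracting ligands, Cxcl2 had the highest CPM per kilobase at each time and Cxcl1 the largest fitted change at 3 h. Cxcl1 had 0.249, 0.226, 0.115 and 0.233 CPM at 0 h, 2.26, 2.57, 2.34 and 1.99 CPM at 3 h, and 0.564, 0.712, 0.570 and 0.323 CPM at 6 h. All 4 libraries at 3 h and all 4 at 6 h were above all 4 at 0 h, and those at 6 h were below those at 3 h. The log2 change was 3.69 ± 0.29 at 3 h against 0 h (SE, n = 4 and 4, adjusted p = 6.61e-08 in edgeR), 1.53 ± 0.31 at 6 h against 0 h (adjusted p = 7.07e-04) and -2.16 ± 0.26 at 6 h against 3 h (adjusted p = 1.09e-05). These levels rest on few reads, 3.09 to 7.05 estimated counts per library at 0 h and 55.5 to 72.1 at 3 h.

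Cxcl2 had 108, 101, 114 and 90.8 CPM at 0 h, 232, 205, 298 and 156 CPM at 3 h, and 208, 189.8, 256 and 163 CPM at 6 h. Each stimulated library was above every unstimulated one, while the 3 h and 6 h libraries overlapped. It rose by 1.35 ± 0.18 on the log2 scale at 3 h (adjusted p = 1.35e-05 in edgeR) and by 1.15 ± 0.18 at 6 h (adjusted p = 5.68e-05). Its change between 3 h and 6 h, -0.21 ± 0.17, did not pass (adjusted p = 0.374). Cxcl3 had 1.26, 0.780, 2.02 and 0.898 CPM at 0 h, 4.29, 4.15, 4.11 and 2.44 CPM at 3 h, and 3.57, 2.92, 3.20 and 1.93 CPM at 6 h. The 3 h libraries lay above all 0 h libraries, replicate 4 at 3 h stood below the other three of its time, and 1 library at 6 h lay within the 0 h range. Its log2 change was 1.84 ± 0.30 at 3 h (adjusted p = 1.06e-04 in edgeR) and 1.39 ± 0.30 at 6 h (adjusted p = 0.00101), with -0.44 ± 0.28 between 3 h and 6 h (adjusted p = 0.225).

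Of the CC ligands that draw monocytes, macrophages and T cells, Ccl3 and Ccl4 rose at 3 h and 6 h, and Ccl4 fell between 3 h and 6 h while Ccl3 did not pass there; the difference between both genes was not tested. Ccl3 (macrophage inflammatory protein 1 alpha) had 37.2, 43.1, 50.9 and 44.2 CPM at 0 h, 299, 311, 385 and 215 CPM at 3 h, and 437, 425, 531 and 332 CPM at 6 h. The stimulated libraries were all above the unstimulated ones, and the 3 h and 6 h libraries overlapped. The log2 change was 3.03 ± 0.19 at 3 h (adjusted p = 4.40e-09 in edgeR) and 3.46 ± 0.19 at 6 h (adjusted p = 1.29e-09). At 6 h against 3 h it was 0.43 ± 0.17, short of the limit at adjusted p = 0.0568, and it passed with no expression filter (adjusted p = 0.0327) and from library totals without TMM (adjusted p = 0.0187). Without Ics_3h replicate 3 or Ics_6h replicate 4 it also passed (adjusted p = 0.0136 and 0.0211). With the library number as a replicate block it passed too (adjusted p = 0.00349 in edgeR), and within each number Ccl3 was higher at 6 h than at 3 h. The labels do not say what the numbers mark. Ccl4 (macrophage inflammatory protein 1 beta), its neighbour on chromosome 11, had 14.8, 15.6, 20.1 and 15.7 CPM at 0 h, 111, 107, 133 and 85.8 CPM at 3 h, and 63.6, 60.5, 77.2 and 53.9 CPM at 6 h. The 3 times did not overlap, with 6 h between 0 h and 3 h. Ccl4 rose by 2.97 ± 0.16 at 3 h and by 2.11 ± 0.15 at 6 h (adjusted p = 8.86e-10 and 2.62e-08 in edgeR) and fell between 3 h and 6 h, with a log2 change of -0.86 ± 0.14 (adjusted p = 2.35e-04).

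Ccl5 (RANTES), made by T and NK cells as well as by stimulated myeloid cells, had 0.208, 0.356, 0.0865 and 0.195 CPM at 0 h, 0.784, 1.04, 0.836 and 0.434 CPM at 3 h, and 0.920, 1.66, 1.18 and 1.12 CPM at 6 h. It rose by 2.06 ± 0.41 at 3 h and 2.64 ± 0.39 at 6 h on the log2 scale (adjusted p = 5.83e-04 and 4.45e-05 in edgeR), from a base of 2.33 to 9.53 estimated counts per library. Its change between 3 h and 6 h was 0.58 ± 0.34 (adjusted p = 0.195). Over the same times the summed level of 12 T and NK cell markers was 16.4 to 20.9, 13.4 to 18.6 and 6.69 to 9.62 CPM. Nkg7 alone had medians of 7.6, 2.6 and 0.68 CPM. The NK cell receptor gene Ncr1 was at 0 in all 8 stimulated libraries, but had at most 0.041 CPM at 0 h. The part of T and NK cells in the Ccl5 rise was not tested.

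Ccl6 had 1248, 1192, 1209 and 1085 CPM at 0 h, 381, 385, 362 and 359.7 CPM at 3 h, and 265, 273, 254 and 346 CPM at 6 h, and the 3 times did not overlap. It fell by 1.42 ± 0.08 at 3 h and by 1.90 ± 0.08 at 6 h against 0 h (adjusted p = 1.78e-09 and 1.16e-10 in edgeR), and by 0.47 ± 0.08 between 3 h and 6 h (adjusted p = 2.39e-04). Per kilobase of annotated exon, a rough scale for setting genes side by side, Ccl6 had the highest level of the 10 at 0 h (659 ± 38.9 CPM per kilobase) and Ccl3 at 3 h (395 ± 91.2) and 6 h (563 ± 107), each as mean ± SD over 4 libraries. For Cxcl1, Cxcl2, Cxcl3 and Cxcl10 the annotated exons together span the whole gene, which lowers their values on this scale beside the other genes. Ccl2, the monocyte attractant, was near the limit of detection, with 0.372, 0.0877, 0.331 and 0.219 CPM at 0 h, 0, 0.0569, 0.0311 and 0 CPM at 3 h, and 0.0268, 0, 0 and 0.0473 CPM at 6 h. That is 2.35 to 10.5 estimated counts per library at 0 h and at most 1.60 in any stimulated library. It did not pass the filter on low counts and was not tested in the main fit. With no expression filter and in DESeq2, all 10 ligands, Ccl2 among them, were called at 3 h and at 6 h against 0 h.

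Cxcl10 and Cxcl16, whose receptors Cxcr3 and Cxcr6 are carried by T cells, had the largest fold changes at 3 h. Cxcl10 (interferon-induced protein 10) had 0.646, 0.944, 1.40 and 1.36 CPM at 0 h, 16.1, 16.1, 16.3 and 15.6 CPM at 3 h, and 7.91, 9.82, 10.8 and 7.19 CPM at 6 h. The 4 libraries at 3 h lay within 15.6 to 16.3 CPM, above all others, and those at 6 h lay between 3 h and 0 h. It rose by 4.13 ± 0.21 at 3 h and 3.20 ± 0.21 at 6 h (adjusted p = 7.34e-10 and 1.01e-08 in edgeR) and changed by -0.93 ± 0.18 between 3 h and 6 h (adjusted p = 6.85e-04). Cxcl16 had 0.404, 0.332, 0.352 and 0.670 CPM at 0 h, 9.83, 7.13, 9.53 and 6.28 CPM at 3 h, and 1.63, 1.47, 2.43 and 1.37 CPM at 6 h, again with no overlap between times. It rose by 4.47 ± 0.28 at 3 h and 2.15 ± 0.29 at 6 h, and changed by -2.33 ± 0.24 between 3 h and 6 h (adjusted p = 5.89e-09, 1.70e-05 and 2.70e-06 in edgeR).

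By these tests the ligands formed 3 patterns. Ccl3, Ccl5, Cxcl2 and Cxcl3 rose at both times and did not fall between 3 h and 6 h, and so are called lasting. Ccl4, Cxcl1, Cxcl10 and Cxcl16 also rose at both times but fell between 3 h and 6 h, and are called partly lasting. Ccl6 fell throughout. No tested member was transient in the sense of having returned to its 0 h level by 6 h. A change between 3 h and 6 h that misses the limit does not show equal levels: the standard errors above leave room for one.

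**Figure D2:**
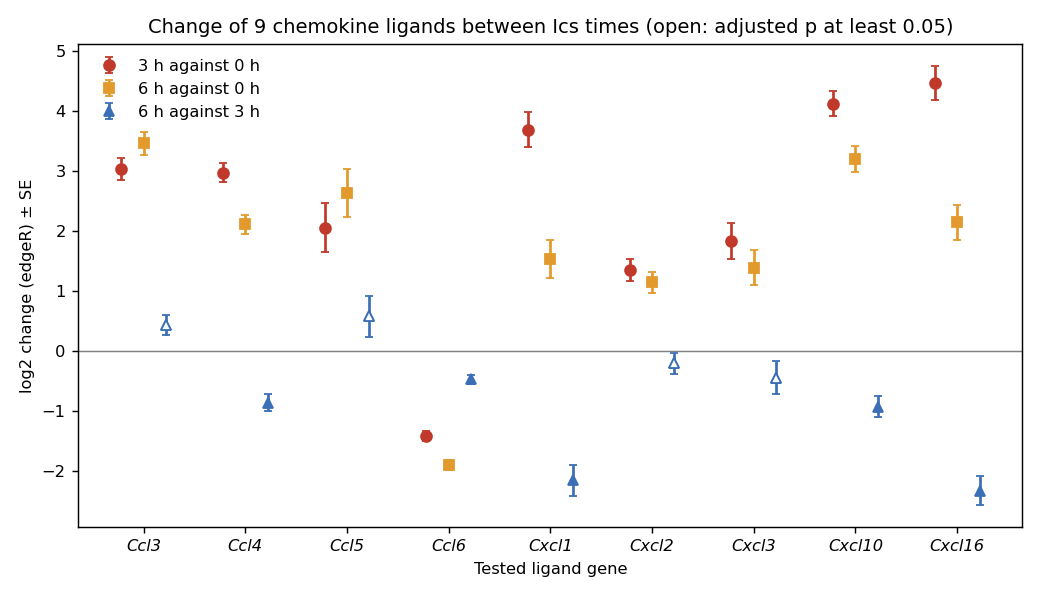
Fitted log2 change ± SE (edgeR, 4 libraries per time) of the 9 tested ligand genes at 3 h against 0 h, 6 h against 0 h and 6 h against 3 h; filled symbols passed adjusted p under 0.05 and open ones did not. Ccl6 is below 0 in all 3 comparisons, and Cxcl16 and Cxcl1 have the lowest values at 6 h against 3 h, -2.33 and -2.16.

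The genes whose level most resembled each ligand's over the 12 Ics libraries were taken by Pearson's r of log2 CPM among the 14996 genes tested, as a description. All 12 points fall into 3 times, which the genes share. For Ccl4 they were Smox (0.996), Tnf (0.996) and Slc49a4 (0.996), and for Cxcl10 Dusp16 (0.996), Cd83 (0.994) and Tnf (0.994), so that Tnf, the gene of tumour necrosis factor, was near both. For Cxcl16 they were Tnfaip2 (0.996), Maff (0.991) and Clec4e (0.991), for Cxcl1 Dennd4b (0.993), Siglece (0.984) and Tcea1 (0.982) and for Ccl3 Sqstm1 (0.997), Gigyf1 (0.996) and Atp6v1e1 (0.996). Cxcl2 had Cpsf7 (0.974), Cldn1 (0.974) and E230013L22Rik (0.972), Cxcl3 had Rab20 (0.959), H2-Aa (0.956) and Cldn1 (0.955), and Ccl5 had Snx30 (0.966), Hcrtr1 (0.965) and Tap1 (0.965). For Ccl6, the one that fell, they were Scrg1 (0.995), Itih5 (0.994) and Ncoa4 (0.994). Among the ligands themselves r was highest for Ccl4 with Cxcl10 (0.987) and for Cxcl1 with Cxcl16 (0.971), and Ccl6 was negative with each of the other 8, from -0.612 to -0.978.

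Few other chemokine ligands could be measured in these libraries. Of 27 further ligand genes in the table, 8 passed the filter: at 3 h 1 rose and 4 fell, at 6 h 1 rose and 3 fell, and between 3 h and 6 h none rose and 3 fell. Ccl9, a close relative of Ccl6, rose by 0.62 ± 0.15 at 3 h (adjusted p = 0.00301 in edgeR). The stromal ligand Cxcl12 fell to 0.418 ± 0.131 CPM at 3 h, against 5.97 ± 1.45 CPM at 0 h, and to 0.187 ± 0.0457 CPM at 6 h (SD, n = 4 each). The platelet ligands Pf4 and Ppbp changed by -3.78 ± 0.47 and -4.82 ± 0.79 on the log2 scale at 3 h (adjusted p = 8.23e-06 and 1.22e-04). The summed level of 5 platelet markers, which include these genes, was 29.0 to 40.7 CPM at 0 h, 5.08 to 9.19 CPM at 3 h and 4.81 to 8.80 CPM at 6 h. The part of platelets in these falls was not tested.

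Of 18 receptor genes, 14 were tested, and 5 rose and 4 fell at 3 h, 2 rose and 5 fell at 6 h, and 1 rose and 5 fell between 3 h and 6 h. By library totals alone 3 rose and 8 fell at 3 h. Ccr1, a receptor of Ccl3, Ccl5 and Ccl6, had 801 ± 31.4 CPM at 0 h, 288 ± 5.49 CPM at 3 h and 331 ± 16.0 CPM at 6 h, and fell by 1.23 ± 0.05 at 3 h (adjusted p = 5.53e-11 in edgeR). Cxcr3, the receptor of Cxcl10, had 2.21 ± 0.445, 0.482 ± 0.0446 and 4.09 ± 0.775 CPM at the 3 times, falling at 3 h (-1.94 ± 0.21) and rising between 3 h and 6 h (2.98 ± 0.21, adjusted p = 7.85e-08). Cxcr2, through which neutrophils answer Cxcl1, Cxcl2 and Cxcl3, had 1049 ± 89.5, 1054 ± 72.2 and 844 ± 53.2 CPM and changed by -0.41 ± 0.07 between 3 h and 6 h (adjusted p = 2.42e-04). The Ccl2 receptor gene Ccr2 fell by 2.01 ± 0.24 at 3 h and 2.46 ± 0.24 at 6 h.

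Of 10 scavenger and processing genes 6 were tested: 2 rose and 4 fell at 3 h, 3 rose and 3 fell at 6 h, and 2 rose and 1 fell between 3 h and 6 h. Adam17, a protease that releases Cxcl16 from the membrane, had 71.0 ± 4.46, 219 ± 19.5 and 281 ± 17.2 CPM at 0 h, 3 h and 6 h and rose by 1.87 ± 0.08 at 3 h (adjusted p = 8.18e-11 in edgeR). Its relative Adam10 had 99.1 ± 3.12, 74.5 ± 1.96 and 121 ± 8.31 CPM and rose by 0.62 ± 0.05 between 3 h and 6 h (adjusted p = 2.67e-07). The atypical receptor gene Ccrl2 rose by 2.93 ± 0.19 at 3 h, to 347 ± 69.6 CPM, against 54.0 ± 14.7 CPM at 0 h.

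All 22 genes listed for the control of chemokine transcription and mRNA decay were tested: 17 rose and 4 fell at 3 h, 16 rose and 4 fell at 6 h, and 5 rose and 12 fell between 3 h and 6 h. Their median log2 change was 1.79, 1.05 and -0.58 in the 3 comparisons. The NF-kB subunit genes Relb (3.75 ± 0.08), Nfkb2 (3.57 ± 0.10) and Nfkb1 (1.80 ± 0.07) rose at 3 h, and so did the inhibitor gene Nfkbie (2.97 ± 0.09, adjusted p = 6.06e-12 in edgeR). Relb had 13.6 ± 0.474 CPM at 0 h, 154 ± 10.4 CPM at 3 h and 169 ± 16.4 CPM at 6 h. Zc3h12a, whose product cuts mRNAs of inflammatory genes, had 87.1 ± 6.30, 292 ± 32.1 and 118 ± 14.8 CPM and fell by 1.39 ± 0.10 between 3 h and 6 h, as did Irf1 by 1.21 ± 0.06 (adjusted p = 1.34e-07 and 5.82e-09).

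Across tissues, the libraries whose markers matched their label (4 skin, 7 monocyte, 8 neutrophil and 6 blood) differed in which ligands were high. Cxcl2, Cxcl3 and Ccl6 were highest in neutrophil libraries, Cxcl16, Ccl5 and Cxcl1 were highest in skin among the 3 tissues compared, and Ccl3 was lower in skin than in either cell type. Ccl2, Ccl4 and Cxcl10 did not pass in any of the 3 comparisons. All skin libraries carry the same title series, which among the matching neutrophil libraries only Neutrophil_IVIG replicate 1 carries. The part of the title series in the skin comparisons was not tested. Each value in the following sentences is the lowest, the median and the highest library of a tissue. Blood values are of the total with haemoglobin, which fills most of the counts and lowers them beside the other tissues. Of the total without haemoglobin, blood had 0.873, 6.65 and 17.6 CPM of Cxcl2, 0.268, 0.521 and 1.77 CPM of Cxcl3 and 50.4, 91.6 and 153 CPM of Ccl6.

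Cxcl2 had 0.247, 7.05 and 7.56 CPM in skin, 0, 8.41 and 106 CPM in monocytes, 502, 924 and 1018 CPM in neutrophils and 0.0946, 0.451 and 1.86 CPM in blood. The neutrophil libraries lay above every other library of the matching set. Its log2 change was -7.72 ± 1.42 for skin against neutrophils (adjusted p = 9.90e-05 in edgeR), -4.95 ± 0.96 for monocytes against neutrophils (adjusted p = 6.61e-04) and -2.77 ± 1.10 for skin against monocytes (adjusted p = 0.0412). Of the 10 ligands, 7 passed for skin against neutrophils, 4 for monocytes against neutrophils and 6 for skin against monocytes. Among all 17838 genes tested in these libraries, 58.7% passed for skin against neutrophils (32.9% higher, 25.9% lower), 26% for monocytes against neutrophils (11.8% higher, 14.2% lower) and 51.4% for skin against monocytes (28.8% higher, 22.6% lower).

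Cxcl3 had 0 counts in all 7 monocyte libraries, 0.0151, 0.293 and 0.647 CPM in skin, 1.21, 3.89 and 6.68 CPM in neutrophils and 0.0179, 0.0378 and 0.156 CPM in blood. Set against the level that 3 counts over the 7 monocyte libraries would give, 0.0164 CPM, it was at least 266-fold lower in monocytes than in neutrophils. By the same limit it was at least 19.0-fold higher in skin than in monocytes, and at least 12.4-fold without Skin_PBS replicate 2. Both limits hold for the 7 matching monocyte libraries only. The library labelled Blood_IVIG replicate 2, with monocyte markers, had 0.356 CPM of Cxcl3, within the skin range. Both PBS skin libraries, at 0.647 and 0.527 CPM, were above both IVIG skin libraries, at 0.0151 and 0.0585 CPM, the first of which is below the limit. Skin against neutrophils gave -4.25 ± 1.03 (adjusted p = 0.00255 in edgeR).

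Ccl6 had 394, 747 and 1424 CPM in skin, 101, 409 and 777 CPM in monocytes, 740.2, 1206 and 1745 CPM in neutrophils and 3.70, 7.60 and 12.9 CPM in blood. It was lower in monocytes than in neutrophils (-1.31 ± 0.25, adjusted p = 5.40e-04 in edgeR) and lower in skin than in neutrophils (-1.02 ± 0.30, adjusted p = 0.00600), although the ranges overlapped. Skin against monocytes, 0.28 ± 0.29, did not pass (adjusted p = 0.434).

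Ccl3 had 14.4, 39.2 and 63.3 CPM in skin, 18.1, 191 and 439 CPM in monocytes, 82.6, 165 and 296 CPM in neutrophils and 0.0231, 0.220 and 0.526 CPM in blood. Skin was lower than neutrophils (-2.69 ± 0.46, adjusted p = 4.66e-05 in edgeR) and lower than monocytes (-3.02 ± 0.48, adjusted p = 2.38e-05). Monocytes and neutrophils, the neighbours at the top, did not differ beyond their spread (0.33 ± 0.34, adjusted p = 0.516). Ccl4 had 4.66, 15.0 and 36.1 CPM in skin, 5.38, 19.8 and 28.3 CPM in monocytes and 9.83, 23.3 and 34.3 CPM in neutrophils, and Ccl2 had 7.33, 23.3 and 72.7 CPM, 4.10, 29.1 and 80.1 CPM and 9.87, 37.4 and 70.4 CPM in the same order. For these 2 genes adjusted p was 0.107 or more in all 3 comparisons. In blood Ccl2, Ccl3 and Ccl4 stayed at or below 0.526 CPM, in libraries of which haemoglobin took 89.2% or more of counts.

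Cxcl16 had 77.3, 89.3 and 169.7 CPM in skin, 0, 0.328 and 0.801 CPM in monocytes, 0.131, 0.674 and 1.17 CPM in neutrophils and 0.00838, 0.0563 and 0.353 CPM in blood, so that no other library of the set came near the skin range. Its log2 change was 6.99 ± 0.60 against neutrophils and 7.85 ± 0.67 against monocytes (adjusted p = 7.29e-09 and 1.21e-08 in edgeR). Cxcl1 had 0.529, 2.56 and 2.91 CPM in skin, 0, 0 and 0.476 CPM in monocytes, 0.0313, 0.277 and 0.626 CPM in neutrophils and 0, 0.0160 and 0.145 CPM in blood. It was higher in skin than in neutrophils (2.56 ± 0.87, adjusted p = 0.0161) and than in monocytes (3.76 ± 0.96, adjusted p = 0.00268), with 1 skin library within the neutrophil range. Cxcl10 had 4.25, 6.51 and 43.6 CPM in skin, 0, 2.46 and 6.60 CPM in monocytes and 1.14, 4.03 and 7.87 CPM in neutrophils, where 1 skin library stood far above the other three. Its adjusted p was 0.0695 or more in the 3 comparisons.

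Ccl5 had 15.6, 30.0 and 63.9 CPM in skin, 0, 0.999 and 6.53 CPM in monocytes, 0, 0.217 and 0.637 CPM in neutrophils and 1.54, 8.58 and 14.0 CPM in blood. Skin was above monocytes (3.21 ± 0.93, adjusted p = 0.00653 in edgeR) and monocytes above neutrophils (3.53 ± 0.86, adjusted p = 0.00431). Of the total without haemoglobin, blood had 20.9 to 129 CPM of Ccl5, and it was the one ligand besides Ccl6 above 2 CPM there by library total. The 12 T and NK cell markers summed to 66.4 to 273 CPM in the skin class, 20.2 to 84.6 CPM in the monocyte class, 25.9 to 62.8 CPM in the neutrophil class. In the blood class the sum was 8.88 to 121 CPM, of a total mostly filled by haemoglobin, which lowers it beside the others. In the monocyte and neutrophil classes the median sums were 37.3 and 45.2 CPM, and Nkg7 alone had medians of 24.2 and 31.6 CPM. The T-cell gene Cd3e had medians of 0.0919 and 0.0071 CPM there, against 8.58 CPM in the skin class and 3.01 CPM in blood. Similar sums therefore need not mean similar T and NK cell content. The part of these cells in the Ccl5 levels was not tested.

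**Figure D3:**
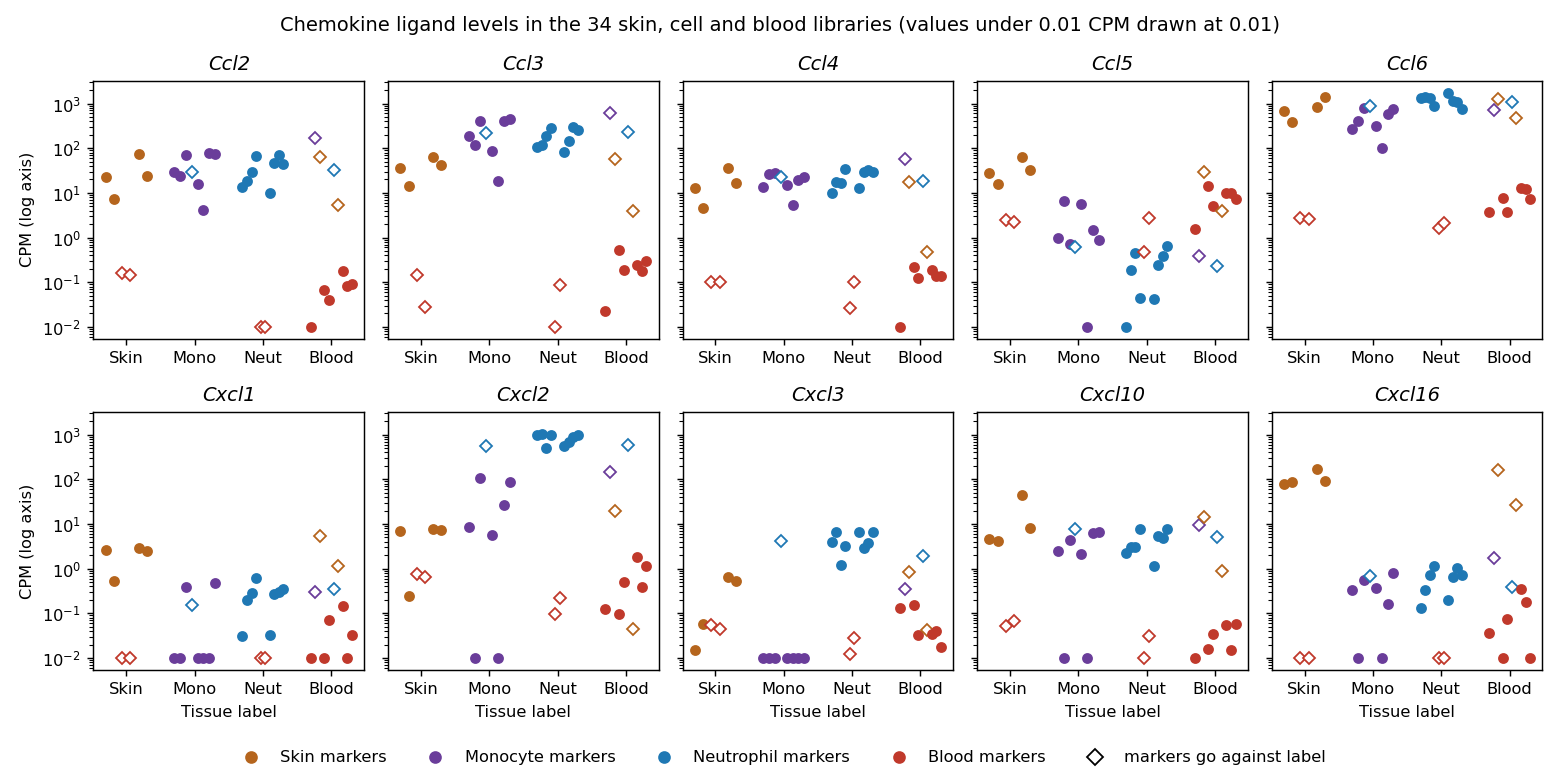
Level of the 10 ligand genes (CPM of the library total, log axis) in each of the 34 libraries, grouped by tissue label, with colour for the class given by marker genes and open diamonds for the 9 libraries whose markers go against the label. Cxcl2 is at 502 CPM or more in the 8 matching neutrophil libraries, and Cxcl16 is at 77.3 CPM or more in the 4 matching skin libraries.

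With all libraries as labelled, fewer of these differences passed. For monocytes against neutrophils none of the 10 ligands passed in edgeR, where 9.76% of 15634 genes did (3.49% higher, 6.27% lower), 2 had an unadjusted p under 0.05, and DESeq2 called 1. For skin against neutrophils Cxcl1 and Cxcl16 were higher and Ccl3 and Cxcl2 lower, and 35.7% of genes passed (17.5% higher, 18.2% lower). For skin against monocytes Ccl5, Cxcl1 and Cxcl16 were higher and Ccl3 lower, and 33.8% of genes passed (19.1% higher, 14.7% lower). This split moved with the scaling and the tool. Of the genes called for monocytes against neutrophils 35.7% were higher, against 86.9% by library totals alone, where the median log2 change of all genes was 0.28 in place of -0.10. For skin against neutrophils 49% of called genes were higher, against 65% by library totals, 59.9% with DESeq2-style size factors and 67.1% in DESeq2, and for skin against monocytes 56.4%, against 71.6% in DESeq2. Ccl5 for monocytes against neutrophils was -2.17 ± 1.33 as labelled, against the rise above in the matching libraries, and without Neutrophil_PBS replicate 1 alone, a library with blood markers and 2.71 CPM of Ccl5, it was 0.55.

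Some libraries whose markers go against their label had ligand levels in the range of the matching libraries of their marker class, and others did not. The library labelled Blood_PBS replicate 1 (neutrophil markers) had 599 CPM of Cxcl2 and 1.95 CPM of Cxcl3, and that labelled Monocyte_PBS replicate 1 (neutrophil markers) had 545 CPM of Cxcl2 and 4.09 CPM of Cxcl3. The libraries labelled Blood_IVIG replicate 3 and Blood_PBS replicate 2 (skin markers) had 162 and 27.3 CPM of Cxcl16, and the second of them was below the range of the matching skin libraries for 7 of the 10 ligands. The library labelled Blood_IVIG replicate 2 (monocyte markers) had 171 CPM of Ccl2 and 599 CPM of Ccl3 and was above the range of the matching monocyte libraries for 7 ligands. Those labelled Skin_IVIG replicate 3 and Skin_PBS replicate 1 (blood markers) had 0.00534 and 0 CPM of Cxcl16 and 2.45 and 2.24 CPM of Ccl5.

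Unstimulated Ics libraries and matching neutrophil libraries, which share neutrophil markers but come from separate experiments, are given side by side without a test. Cxcl2 had 90.8 to 114 CPM at 0 h in Ics and 502 to 1018 CPM in neutrophils, above even the stimulated Ics libraries. Ccl2 had 0.0877 to 0.372 CPM at 0 h in Ics and 9.87 to 70.4 CPM in neutrophils. Ccl6 was 1085 to 1248 CPM at 0 h in Ics and 740.2 to 1745 CPM in neutrophils.

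The design text names the effect of IVIG as the question, and for IVIG against PBS no ligand passed in any tissue. As labelled, 9 ligands were tested in skin, 8 in monocytes, 9 in neutrophils and 5 in blood, and edgeR called 0 of 16171, 14415, 14033 and 11339 genes, which is 0% in each. Unadjusted p was under 0.05 for 157, 286, 73 and 81 genes, none of them one of the 10 ligands. DESeq2 called 3 genes in skin, 7 in monocytes and 7 in blood, again none of the ligands. In the libraries whose markers match the label edgeR called 4 genes in skin (0.0236%, all higher) and 5 in blood (0.0477%, with 0.0286% higher and 0.0191% lower), and 0 in monocytes and neutrophils, with no ligand among them. Unadjusted p was under 0.05 there for 1446 genes in skin (8.54%, 7 ligands among them), 306 in monocytes (2.18%, no ligand), 134 in neutrophils (0.931%, no ligand) and 703 in blood (6.71%, among them Ccl6).

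In skin, with 2 IVIG and 2 PBS libraries whose markers match, all 10 ligands had lower values with IVIG. For 9 of them, all but Cxcl1, both IVIG libraries lay below both PBS libraries. No ligand kept this separation over all libraries of the skin class, given below. Among all 16934 genes tested in the matching skin libraries, 35.9% did not overlap between the groups, 24.2% higher and 11.8% lower. Cxcl10 had 4.71 and 4.25 CPM with IVIG, against 43.6 and 8.30 CPM with PBS, a log2 change of -2.62 ± 0.77 (adjusted p = 0.421 in edgeR). Ccl2 had 22.2 and 7.33 CPM with IVIG, against 72.7 and 24.3 CPM with PBS (-1.84 ± 0.68, adjusted p = 0.540). Ccl3 had 35.6 and 14.4 CPM with IVIG, against 63.3 and 42.9 CPM with PBS, and Ccl4 had 13.1 and 4.66 CPM with IVIG, against 36.1 and 16.9 CPM with PBS. For Cxcl10 and Ccl2 the 2 PBS libraries lay farther apart in CPM than the lower PBS library lay from the IVIG libraries.

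Ccl5 in the same skin libraries had 28.3 and 15.6 CPM with IVIG, against 63.9 and 31.8 CPM with PBS, and Ccl6 had 673 and 394 CPM with IVIG, against 820.1 and 1424 CPM with PBS. Cxcl16 had 77.3 and 85.3 CPM with IVIG, against 169.7 and 93.3 CPM with PBS. The neutrophil attractants were Cxcl1 at 2.60 and 0.529 CPM with IVIG and 2.91 and 2.53 CPM with PBS, Cxcl2 at 6.87 and 0.247 CPM with IVIG and 7.56 and 7.24 CPM with PBS, and Cxcl3 at 0.0151 and 0.0585 CPM with IVIG and 0.647 and 0.527 CPM with PBS. Over the 10 genes the log2 change ran from -4.02 to -0.77 with adjusted p of 0.373 to 0.926, and 7 had an unadjusted p under 0.05, as did 8.54% of all genes tested.

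Cell markers moved with these values. The 11 monocyte and macrophage markers summed to 2394 and 4104 CPM with IVIG, against 4848 and 5793 CPM with PBS, and the 7 neutrophil markers to 57.7 and 67.5 CPM with IVIG, against 83.4 and 134 CPM with PBS. Fibroblast markers went the other way, with 26280 and 34740 CPM with IVIG, against 13650 and 16040 CPM with PBS, while keratinocyte markers (2185 and 4818 CPM with IVIG, 983 and 4156 CPM with PBS) and T and NK cell markers (187 and 222 CPM with IVIG, 167 and 273 CPM with PBS) overlapped. Their part in the ligand values was not tested. With all 3 libraries of each group as labelled, every ligand overlapped between IVIG and PBS. Over the 6 libraries of the skin class, 3 with each condition by label, all 10 ligands overlapped too. There the library labelled Blood_IVIG replicate 3 had 64.0 CPM of Ccl2 and 1243 CPM of Ccl6, and that labelled Blood_PBS replicate 2 had 5.31 CPM of Ccl2 and 468 CPM of Ccl6.

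In neutrophils the 4 IVIG and 4 PBS libraries whose markers match overlapped for every ligand. Cxcl2 had 994, 1018, 502 and 1009 CPM with IVIG, against 563, 695, 872 and 975 CPM with PBS (0.17 ± 0.26 on the log2 scale, adjusted p = 1.000 in edgeR). Ccl3 had 108, 119, 186 and 286 CPM with IVIG, against 82.6, 144, 296 and 255 CPM with PBS. The 8 ligands tested changed by -0.42 to 0.17. In monocytes the 7 tested changed by -0.34 to 0.60, with Ccl2 at 29.1, 23.8 and 70.3 CPM with IVIG, against 15.8, 4.10, 80.1 and 73.5 CPM with PBS. The monocyte libraries Monocyte_IVIG replicate 2 and Monocyte_PBS replicate 3 had 0 CPM of Cxcl1, Cxcl2, Cxcl3, Cxcl10 and Cxcl16 alike. Fewer genes reached 5 counts in these libraries, 10969 and 8959, than in the other monocyte libraries, with 13862 or more. The part of this in the zeros was not tested. In blood 3 ligands were tested, Ccl5 (-0.29 ± 0.51), Ccl6 (-0.86 ± 0.27) and Cxcl2 (-1.57 ± 0.82), with adjusted p of 0.740 or more. Ccl6 there had 3.70, 7.73 and 3.83 CPM with IVIG, against 12.9, 12.2 and 7.47 CPM with PBS.

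**Figure D4:**
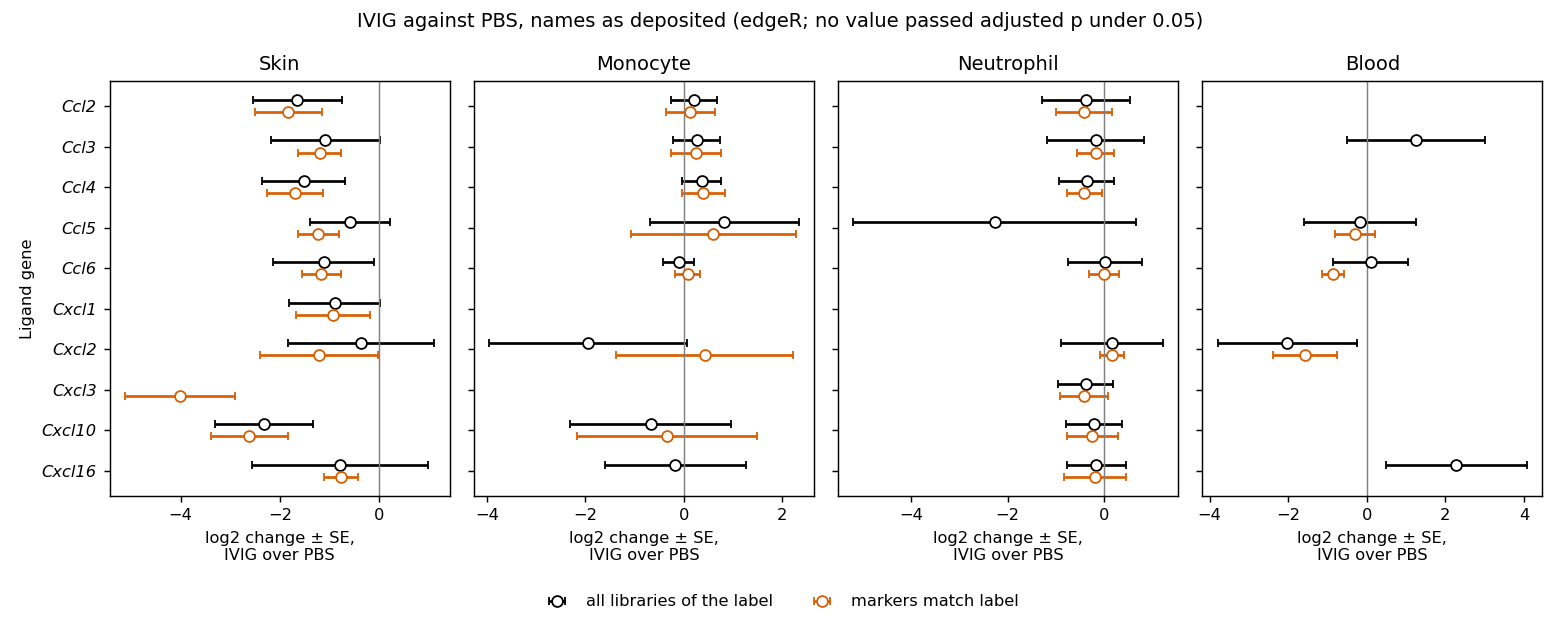
Fitted log2 change ± SE (edgeR) of the ligand genes tested, IVIG over PBS, in skin, monocytes, neutrophils and blood, for all libraries as labelled (black) and for those whose markers match the label (orange). In skin the 10 orange points lie between -4.02 and -0.77, and no point passed adjusted p under 0.05.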

How the data were processed

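Bulk RNA was measured in 46 libraries. The authors deposited 1 table of estimated counts per gene symbol (length-scaled TPM) with 46264 symbols. Per the submitters' processing notes, the tools were kallisto 0.46.1 with the build GRCm38; how transcripts were summed, scaled and filtered is not given in the sources used here. Such scaling removes most of the effect of transcript length between libraries, and an estimated count need not be whole, so counts were rounded for the tests. Library totals were 29202861 to 33276385 in skin, 18965434 to 39014292 in monocytes, 19784909 to 37487558 in neutrophils, 27419349 to 43176793 in blood and 24827887 to 29502869 in Ics. No 2 of 77 same-group pairs were identical. A level is CPM, the estimated count scaled to a common library total, and floors cover counting error only.

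Groups follow the condition label, from which the treatment label differed in 34 of the 46 libraries. Tests used edgeR 4.0.16 in R 4.3.3 (quasi-likelihood F test, TMM, filterByExpr with a minimum count of 10, Benjamini-Hochberg over all genes tested, limit 0.05). Each printed SE is the log2 change divided by the square root of F. The 3 Ics times, each tissue's IVIG and PBS libraries, and the skin, monocyte and neutrophil libraries were fitted separately, and 1 comparison of each fit was tested on simulated data. Blood entered no test across tissues, because haemoglobin fills most of its counts. Alternatives were DESeq2 1.42.0, DESeq2-style size factors, library totals alone (chosen after seeing the data), no filter, the title series as a covariate (chosen after seeing the data), the labelled condition as a covariate, a replicate block (across tissues with limma 3.58.1, and limma without the block, chosen after seeing the data), libraries whose markers match their label, and leaving out each library. The numbers m1 to m4 of the Ics libraries are not said to mark a shared animal or day. The 10 genes, the gene lists and the marker limits were chosen with earlier results of these data known. Beside the 10 genes, the text names at most 4 genes of each pathway list per Ics comparison, those with the smallest p, and the 3 genes nearest in pattern to each ligand.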

Additional observations from a re-analysis of the deposited data

Results flagged for a closer look

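Among 80 sets of values (10 ligand genes in 8 groups of 4 or 5 libraries), 16 held a library far from the others of its group by Dixon's criterion, which chance meets in about 1 of 20 sets. Of these, 14 were in libraries whose markers go against their label.

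The library labelled Blood_PBS replicate 1, which carries neutrophil markers, accounted for 6. It had 32.8 CPM of Ccl2 (nearest other 5.31), 228 CPM of Ccl3 (nearest 3.84), 18.4 CPM of Ccl4 (nearest 0.475), 599 CPM of Cxcl2 (nearest 1.86), 1.95 CPM of Cxcl3 (nearest 0.0424) and 5.08 CPM of Cxcl10 (nearest 0.890). The library labelled Blood_IVIG replicate 2, with monocyte markers, had 599 CPM of Ccl3 (nearest 56.2) and 144 CPM of Cxcl2 (nearest 19.1). The library labelled Blood_IVIG replicate 3, with skin markers, had 5.45 CPM of Cxcl1 (nearest 0.295) and 162 CPM of Cxcl16 (nearest 1.76), and the library labelled Blood_PBS replicate 2, also with skin markers, had 27.3 CPM of Cxcl16 (nearest 0.399).

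The library labelled Monocyte_PBS replicate 1, with neutrophil markers, had 545 CPM of Cxcl2 (nearest 89.3) and 4.09 CPM of Cxcl3, where the other 4 of its group had 0. The library labelled Neutrophil_PBS replicate 1, with blood markers, had 2.71 CPM of Ccl5 (nearest 0.637). In a library whose markers match its label, Monocyte_PBS replicate 2, Ccl5 was 5.60 CPM (nearest 1.47). In the Ics experiment Cxcl3 was 2.44 CPM in replicate 4 at 3 h, below the other three (nearest 4.11).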

How the results depend on the processing

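In the Ics experiment all 27 ligand changes kept their direction under every alternative, and all but Ccl3 at 6 h against 3 h (0.43, adjusted p = 0.0568 in edgeR) kept their side of the limit. Ccl3 passed with no filter (0.45, adjusted p = 0.0327), by library totals (0.51, adjusted p = 0.0187), with the replicate block (0.44, adjusted p = 0.00349), and without Ics_3h replicate 3 (0.60, adjusted p = 0.0136) or Ics_6h replicate 4 (0.54, adjusted p = 0.0211). Genes called without 1 library numbered 7690 to 8223, 8511 to 9220 and 5526 to 6136 in the 3 Ics comparisons, with 9, 9 and 5 to 6 ligands. Same-numbered Ics libraries deviated together weakly (r of 0.0481 to 0.184, 8 of 12 pairs over 0.1), and 12 of 12 libraries correlated best with their own number. With the number as a replicate block 8297, 9151 and 6354 genes and 9, 9 and 6 ligands were called.

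For IVIG against PBS no ligand passed under any alternative, and 0 genes passed without any 1 library. DESeq2 called 7 genes in blood, 7 in monocytes and 3 in skin, library totals 1 in monocytes, and matching libraries 5 in blood and 4 in skin. Directions of uncalled ligands reversed in blood for Ccl5 by library totals (0.76), and in matching libraries for Ccl6 in blood (-0.86), neutrophils (-0.0049) and monocytes (0.087) and Cxcl2 in monocytes (0.43). With the title series as a covariate they reversed for Ccl3 (0.11) and Ccl5 (1.61) in neutrophils and Ccl5 in monocytes (-0.059). Leaving out 1 library at a time gave log2 ranges that cross 0 in blood Ccl3 -1.54 to 5.09, Ccl5 -0.74 to 0.19, Ccl6 -0.86 to 0.93, Cxcl16 -2.78 to 4.36 and Cxcl2 -3.90 to 1.58, in neutrophils Ccl2 -1.06 to 0.026, Ccl3 -0.58 to 0.17, Ccl5 -6.52 to 3.20, Ccl6 -0.29 to 0.45, Cxcl10 -0.73 to 0.088, Cxcl16 -0.76 to 0.16 and Cxcl2 -0.15 to 0.48, in monocytes Ccl5 -0.80 to 2.46, Ccl6 -0.22 to 0.087, Cxcl16 -0.70 to 0.36 and Cxcl2 -4.12 to 0.43, in skin Cxcl16 -1.36 to 0.13 and Cxcl2 -2.14 to 0.51.

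Across tissues, monocytes against neutrophils called 1526 genes in edgeR, 3328 with DESeq2, 84 by library totals, 4629 in matching libraries, 3245 in limma with the replicate block and 3220 in limma alone, and 0, 1, 0, 4, 3 and 3 ligands, so that the block itself (correlation 0.010) moved little beyond the change of tool. Skin against neutrophils called 5589 genes, 9915 without a filter, 8581 with DESeq2, 3172 by library totals and 10476 in matching libraries, and 7 ligands in matching libraries and 7 in limma with the replicate block and alone, against 4. Skin against monocytes called 5286 genes, 9763 without a filter, 8707 with DESeq2, 2157 by library totals and 9165 in matching libraries. Without 1 library the 3 comparisons called 925 to 2424, 4609 to 6486 and 4453 to 5969 genes, and 0 to 2, 3 to 6 and 3 to 5 ligands. For monocytes against neutrophils, matching libraries reversed Ccl4 (-0.023) and Ccl5 (3.53), library totals Ccl5 (2.03) and Cxcl10 (0.067), and limma Ccl5 (1.13 with the block, 1.15 alone). For skin against monocytes, Ccl6 reversed by library totals (0.17) and in matching libraries (0.28), and Cxcl3, with no count in any matching monocyte library, reversed with DESeq2 (0.53), in matching libraries (5.84), with condition as a covariate (0.16) and in limma (2.73 with the block and alone). Ranges that cross 0 without 1 library were for monocytes against neutrophils Ccl5 -2.71 to 0.55, for skin against neutrophils Cxcl10 -0.072 to 1.37, for skin against monocytes Ccl6 -0.67 to 0.014 and Cxcl3 -0.81 to 6.43. For skin against neutrophils, Ccl3 (-2.45, adjusted p = 0.102) and Cxcl1 (2.80, adjusted p = 0.0667) did not pass by library totals, nor Cxcl1 without Skin_IVIG replicate 1, Skin_PBS replicate 2 or Skin_PBS replicate 3 (adjusted p = 0.0598 to 0.0734). For skin against monocytes, Ccl3 did not pass by library totals (-3.13, adjusted p = 0.0544), nor Ccl5 without Monocyte_IVIG replicate 3, Monocyte_PBS replicate 1, 4 or 5 (adjusted p = 0.0507 to 0.0515). Of the total without haemoglobin, mean CPM over the libraries as labelled was 10.6 for Cxcl2 and 0.674 for Cxcl3 in skin, and 10.3 in neutrophils and 59.6 in blood for Ccl5. In the matching libraries the same means were 5.48 for Cxcl2 and 0.312 for Cxcl3 in skin. For Ccl5 they were 0.249 in neutrophils and 93.7 in blood. Neutrophil_PBS replicate 1 and Neutrophil_IVIG replicate 5, both with blood markers, had 73.0 and 28.3 CPM of Ccl5 on this scale. What set these libraries apart was not tested. With 2 matching skin libraries a group, and counts of 3.09 to 7.05 for Cxcl1 at 0 h, depth and number limit what could be detected.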
